A study of Gossypium hirsutum with 45 samples.

Results

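Gohir.D02G183400 and Gohir.D02G183500 are neighbouring genes on chromosome D02 of upland cotton (Gossypium hirsutum), and both carry the Pfam description "wound-induced protein" (PF12609). They were picked by name as 2 of the 75376 genes of the deposited table, with their measured values already known, so their levels and changes are described here without a test. RNA was sequenced from leaf, root and stem of seedlings of the line Hengmian HD008, all grown in sterilized sand to the stage of 3 leaves. Each tissue was taken before treatment (0 min) and after 10, 30, 60 and 180 min in 10% PEG 6000, a polymer that draws water out of reach of the roots and imitates drought. Each of the 15 groups had 3 libraries, 45 in all. The labels name no transgene, and untreated plants taken at the later times are not among the libraries used here, so PEG cannot be told apart from time of day or handling. Nothing in the labels says that the 3 libraries of a group came from separate plants, and the spread between them may be technical.

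Proteins of this family are small, and genes of the family in Arabidopsis are known to respond to wounding and to low oxygen. Wounding and water loss in plants act in part through jasmonate, a hormone made from membrane fatty acids by lipoxygenases, allene oxide synthase and allene oxide cyclase. Jasmonate in turn switches on defence proteins such as proteinase inhibitors. What the cotton proteins do is not stated in the files.

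Gohir.D02G183400 lies on the minus strand at D02 66212629 to 66212889, and Gohir.D02G183500 on the same strand at 66214299 to 66214559, in the coordinates of the deposited table. Each gene model is 261 bases long, and 1409 bases separate them. They sit in a row of 5 wound-induced protein genes that spans 10071 bases. Gohir.D02G183300 comes first, on the plus strand, and is also 261 bases long. Gohir.D02G183700 (1077 bases) and Gohir.D02G183800 (1093 bases) follow the pair on the minus strand. The next listed gene on the left is 32.363 kb away and the next on the right 2.529 kb away. A row on chromosome A03, Gohir.A03G160100 to Gohir.A03G160500, has the same make-up of 1 plus-strand gene followed by 4 minus-strand genes, over 12788 bases. The files do not say which A and D genes correspond. No sequences were at hand, so how alike these genes are is not known. The sources used here do not say how reads matching several genes were counted, so the split of reads within a row is uncertain.

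**Figure D1:**
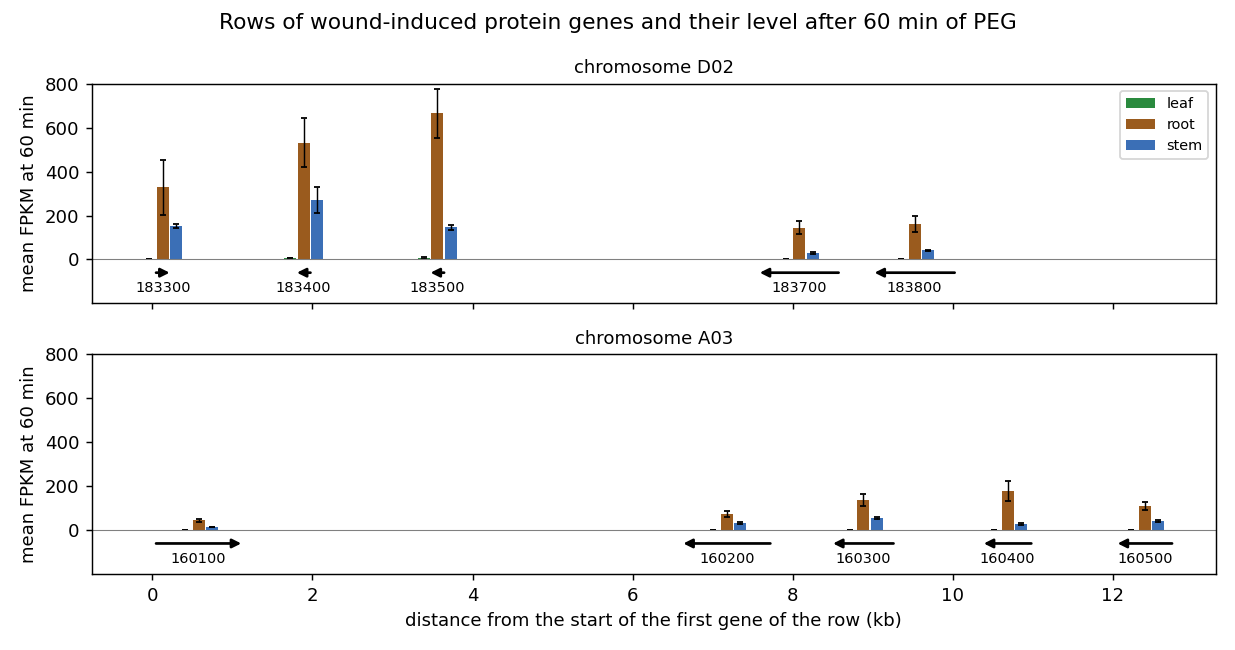
Mean FPKM at 60 min (bars, left axis, 3 libraries each, error bars are SD) of the wound-induced protein genes in the rows on chromosomes D02 and A03, placed by distance in kb from the start of the first gene; arrows show each gene's extent and strand. The pair, drawn just right of the plus-strand gene of the D02 row, has the tallest root bars (means of 530.2 and 665), and leaf bars are close to 0 in every gene of both rows. Bar height depends on the listed gene length, which is 261 bases for the pair.

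The libraries held 16373617 to 21774520 reads. Levels are in FPKM, that is, fragments divided by gene length and by a factor for the library's depth. Comparisons of level between genes therefore rest on the listed gene length. In root at 60 min Gohir.D02G183400 (261 bases) had 1785 to 2378 reads per library. Gohir.D02G183700 (1077 bases) had 2042 to 2862 there, so its lower FPKM came with similar reads. A single read in a gene of 261 bases was worth 0.169 to 0.344 FPKM, and low values of the pair therefore rest on few reads. Libraries of a group correlated with each other at a median r of 0.952 in leaf, 0.964 in root and 0.938 in stem across genes. The lowest were stem 180 min replicate 3 (0.881), stem 0 min replicate 1 (0.889) and stem 180 min replicate 2 (0.899). Transcripts for photosynthesis proteins (Rubisco small subunit and chlorophyll-binding proteins, 59 genes) summed to 1000.2 to 4343 FPKM in leaf, 423 to 1212 in stem and 9.24 to 68.2 in root. The 3 genes for Casparian strip membrane proteins, which mark the root endodermis, summed to at most 0.398 in leaf and 0.210 in stem.

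In root, both genes stood low before treatment and high at every later time. The 3 root libraries at 0 min had 3.03, 3.87 and 4.48 FPKM of Gohir.D02G183400 (17 to 20 reads). After 10 min they had 20.9, 39.1 and 58.0, and after 30 min 72.3, 115 and 166. After 60 min they had 402, 581 and 608, and after 180 min 581, 760 and 1035. Each treated library thus lay above each library at 0 min. The means were 3.79 ± 0.725 (SD, n = 3) at 0 min and 39.3 ± 18.5, 118 ± 46.8, 530.2 ± 112 and 792 ± 228 at the later times. The change in the mean of log2(FPKM + 1) was 2.97, 4.56, 6.78 and 7.34 with a standard error of 0.37 each. On the linear scale the 10 min mean was 10.4 times and the 180 min mean 209 times the mean at 0 min.

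Gohir.D02G183500 began lower in root and reached a similar level. Its 0 min libraries had 0.843, 1.14 and 2.69 FPKM, from 5 to 12 reads. They were followed by 25.8, 40.2 and 75.9 after 10 min and by 96.3, 102 and 201 after 30 min. After 60 min the libraries had 545, 687 and 763, and after 180 min 579, 660.1 and 811. The groups at 60 and 180 min overlapped, and every earlier treated library lay below both. Means were 1.56 ± 0.991 (SD, n = 3), 47.3 ± 25.8, 133 ± 58.6, 665 ± 111 and 683 ± 118 in order of time. The log2 changes were 4.17, 5.70, 8.08 and 8.12, each with a standard error of 0.38. The ratio of the 60 min mean to the 0 min mean was 428, and its base is the handful of reads at 0 min.

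The step from 60 to 180 min in root was small beside the earlier steps. It was 0.56 ± 0.37 (log2, SE) for Gohir.D02G183400 and 0.04 ± 0.38 for Gohir.D02G183500. By mean FPKM the first gene was 26406th of 75376 genes in root at 0 min and 79th at 60 min, and the second went from 37759th to 49th. All 3 treated libraries above all 3 at 0 min was met by both genes at each time in root. Of all genes tested, 17.8% met it at 10 min, 23.4% at 30 min, 27.5% at 60 min and 29.9% at 180 min. The cell markers also moved in root. The photosynthesis sum was 13.1 to 23.1 FPKM at 0 min, 9.24 to 15.8 at 60 min and 44.7 to 68.2 at 180 min, with 20, 16 and 12 of its 59 genes at 0 in all 3 libraries. The Casparian strip sum was 23.2 to 30.9 at 0 min, 9.60 to 28.1 at 60 min and 0 to 11.7 at 180 min, and each of its 3 genes had reads in each of these groups. The part of these shifts in the levels of the pair was not tested, and in whole tissue more cells using a gene cannot be told apart from more RNA per cell.

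In stem, both genes were higher at every treated time than at 0 min, highest at 60 min, and lower again at 180 min. Gohir.D02G183400 had 1.37, 4.79 and 17.9 FPKM at 0 min. It had 61.7, 79.6 and 99.1 at 10 min and 115, 184 and 185 at 30 min. At 60 min it had 228, 241 and 337, and at 180 min 51.8, 78.9 and 101. The 180 min libraries all lay below those of 60 min and above those of 0 min. Means were 8.00 ± 8.70 (SD, n = 3), 80.1 ± 18.7, 161 ± 40.1, 269 ± 59.7 and 77.3 ± 24.7. The log2 changes from 0 min were 3.64, 4.64, 5.38 and 3.57 (standard error 0.56 each), and 180 min differed from 60 min by -1.82.

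Gohir.D02G183500 had a lower level in stem and the same order of times. Its libraries had 1.17, 4.27 and 9.54 FPKM at 0 min, 17.4, 18.9 and 30.4 at 10 min, and 43.0, 43.2 and 86.1 at 30 min. They had 137, 142 and 160.2 at 60 min and 16.5, 20.1 and 23.5 at 180 min. The libraries at 180 min thus overlapped those at 10 min. Means were 5.00 ± 4.23 (SD, n = 3), 22.2 ± 7.13, 57.4 ± 24.8 and 146 ± 12.3 up to 60 min, with an SD of 3.51 at 180 min. The log2 changes were 2.19, 3.48, 4.89 and 2.07 (standard error 0.46 each), and 180 min differed from 60 min by -2.82.

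The 0 min level in stem was uneven, with the highest value of both genes in replicate 1 and the lowest in replicate 3. Without replicate 1 the 60 min log2 change was 6.17 for Gohir.D02G183400 and 5.44 for Gohir.D02G183500. Without replicate 3 it was 4.67 and 4.30. At 180 min, where replicates 2 and 3 agreed least with their group, the change was 3.35 without replicate 2 of that group and 3.83 without its replicate 3 for Gohir.D02G183400, and 1.96 and 2.20 for Gohir.D02G183500. All 3 treated libraries lay above all 3 at 0 min at each time for both genes, which held for 8.95%, 12.5%, 22.5% and 20.2% of all genes tested in stem at 10, 30, 60 and 180 min. The photosynthesis sum in stem was 632 to 953 FPKM at 0 min, 423 to 531 at 60 min and 702 to 1212 at 180 min, with 5, 6 and 2 of 59 genes at 0, and its part was not tested. The Casparian strip markers were at or near 0 in every stem group.

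**Figure D2:**
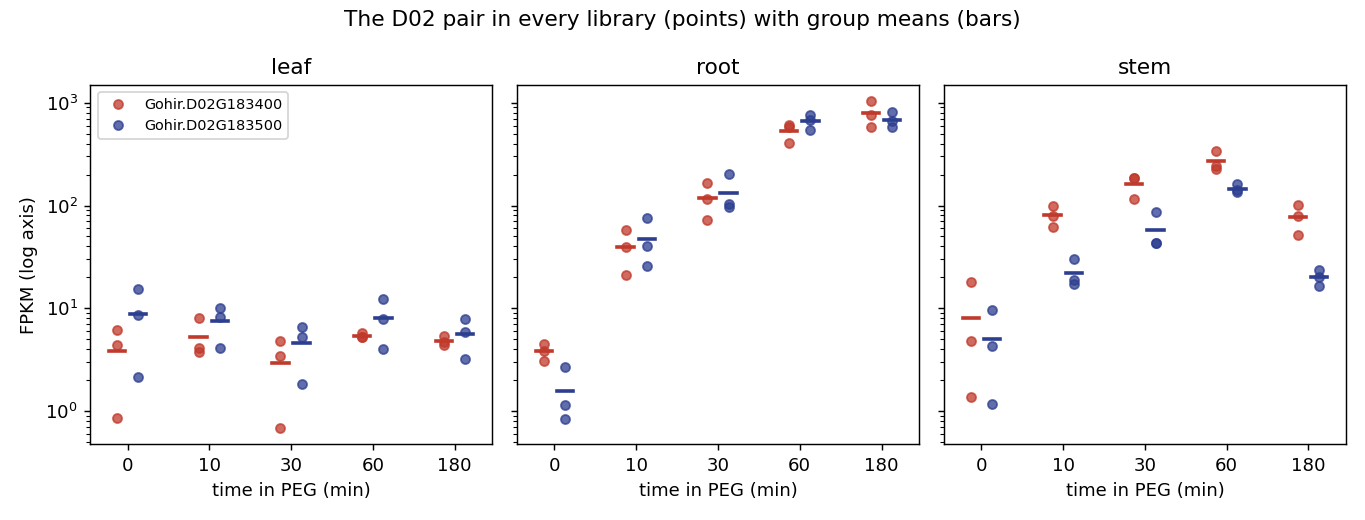
FPKM (log axis) of Gohir.D02G183400 and Gohir.D02G183500 in each of the 45 libraries, by tissue and time in PEG; points are libraries and bars are group means of 3. Leaf points stay between 0.684 and 15.3, root points climb to 60 min and stay there, and stem points peak at 60 min.

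In leaf, neither gene moved beyond the spread between libraries. The 12 treated leaf libraries had 0.684 to 8.04 FPKM of Gohir.D02G183400, with a median of 4.73, beside 0.849 to 6.21 at 0 min. Gohir.D02G183500 had 1.82 to 12.3 with a median of 6.25, beside 2.12 to 15.3 at 0 min. The log2 changes in order of time were 0.54, -0.25, 0.62 and 0.48 for the first gene (standard error 0.48 each) and 0.02, -0.63, 0.08 and -0.31 for the second (0.58 each). The leaf values rest on 3 to 77 reads per library.

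Before treatment, the tissues differed little in Gohir.D02G183400. The log2 differences were 0.20 for root minus leaf, 0.62 for stem minus leaf and -0.42 for root minus stem, each with a standard error of 0.50. For Gohir.D02G183500 they were -1.69, -0.68 and -1.02, each with a standard error of 0.51, so the largest gap was its lower level in root than in leaf. Over the 15 groups, root at 180 and 60 min held the highest 2 means of both genes, and these groups overlapped. No overlap was seen between root at 60 min and the next group, stem at 60 min. The lowest 7 means of Gohir.D02G183400, and of Gohir.D02G183500, were those of the 5 leaf groups and of root and stem at 0 min, and each of these groups overlapped its neighbour in the order. A narrow gap in the library values separated these 7 groups from the treated root and stem groups in both genes. It ran from 17.9 to 20.9 FPKM in Gohir.D02G183400 and from 15.3 to 16.5 in Gohir.D02G183500. How many of all genes have gaps of these kinds between groups was not counted.

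In the treated libraries the balance between the neighbours differed by tissue. Gohir.D02G183400 had the higher FPKM in 15 of 15 stem libraries, with a ratio of 1.51 to 4.31 in the 12 treated ones. In the 12 treated root libraries the ratio was 0.738 to 1.28, which does not overlap the stem range, and the gene was the higher one in 4 of them. At 0 min the ratio was 1.67 to 3.60 in root and 1.12 to 1.87 in stem, and these ranges overlapped. How often other gene pairs differ in this way was not counted. In root the ratio of means was 2.44 at 0 min, where few reads were counted, then 0.831, 0.885, 0.797 and 1.16. In stem after treatment it was 3.60, 2.81, 1.84 and 3.86, lowest at the 60 min peak. In leaf the first gene was higher in 2 of 15 libraries. Deviations of the pair from the group means of log2(FPKM + 1) correlated at 0.689 in leaf, 0.887 in root and 0.880 in stem. They had the same sign in 10, 12 and 10 of 15 libraries, and both genes share each library's depth and scaling. The stem r rests mostly on 0 min replicates 1 and 3, whose deviations were the largest in both genes. Those libraries had 17.9 and 1.37 FPKM of Gohir.D02G183400 and 9.54 and 1.17 of Gohir.D02G183500. In stem at 60 min the deviations did not go together. Replicate 2 there had the highest value of Gohir.D02G183400 (337 FPKM) and the lowest of Gohir.D02G183500 (137).

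**Figure D3:**
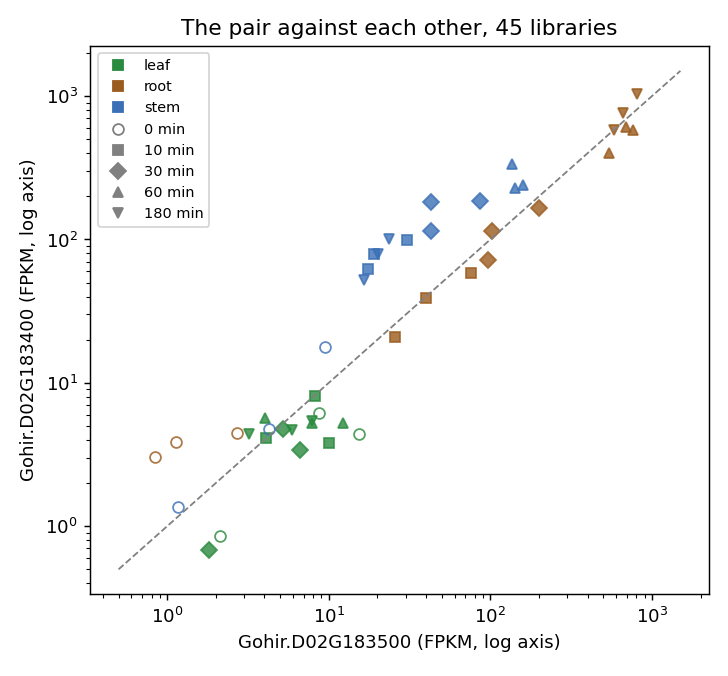
FPKM of Gohir.D02G183400 (vertical, log axis) against Gohir.D02G183500 (horizontal, log axis) in the 45 libraries; colour marks the tissue, shape the time, open circles 0 min, and the dashed line equal values. The 15 stem libraries lie above the line, and the treated root libraries lie along it at ratios of 0.738 to 1.28.

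The other genes of the family were not used to choose the pair and were tested with limma. Of the 29 others listed, 22 reached 1 FPKM in at least 3 of the 45 libraries, and a gene could do so through its treated libraries alone, so the counts below are descriptions and not support for the pair. In root, 20 were tested, and 20 changed at some time by the F test, beside 66.8% of all genes tested. The number that rose was 12 at 10 min, 16 at 30 min, 20 at 60 min and 19 at 180 min, and none of the 20 fell, at an adjusted or an unadjusted p under 0.05 (limma). Of all genes tested in root, 8.16%, 17.6%, 19.5% and 28.5% rose at these times, and 7.03%, 16.6%, 19.1% and 26.9% fell. Dividing by library totals instead lowered the share of rises among all calls in root at 180 min from 51.5% to 26.4%, with 7406 rises and 20692 falls, at 60 min from 50.5% to 37.8%, at 30 min from 51.4% to 37.8% and at 10 min from 53.7% to 42.1%. Their median log2 change was 1.03, 2.19, 4.65 and 5.19, beside medians within 0.04 of 0 for all genes.

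In stem, 19 of the 29 were tested and 18 changed at some time, beside 34.4% of all genes. None rose at 10 min, when 0.0021% of all genes did and 0% fell, although their median change was 0.80 and 8 rose at an unadjusted p under 0.05 (limma). At 30 min 10 rose, at 60 min 18 and at 180 min 9, beside 1.61%, 13.3% and 15% of all genes. None of the 19 fell at these times, beside 0.759%, 11.6% and 14.3% of all genes, and 1 fell at 180 min at an unadjusted p under 0.05. Dividing by library totals moved the share of rises among all calls in stem at 30 min from 68.0% to 57.4%, at 60 min from 53.5% to 62.5% and at 180 min from 51.2% to 61.0%. Between 60 and 180 min 15 of the 19 fell and none rose, beside 6.16% and 4.92% of all genes, with a median of -2.49, and none rose at an unadjusted p under 0.05 either (limma). The same step in root had 3 that rose and 4 that fell of 20, beside 17.6% and 14.2%, and without root 10 min replicate 3 there were 5 that rose. Without stem 0 min replicate 1, 1 gene rose in stem at 10 min. Without stem 0 min replicate 3, the count that rose at 30 min was 5, without stem 30 min replicate 1 it was 6, and without stem 180 min replicate 2 the count at 180 min was 5.

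In leaf, 11 of the 29 were tested and 4 changed at some time, beside 30% of all genes. The number that rose was 0 at 10 min, 1 at 30 min, 1 at 60 min and 2 at 180 min, beside 0.884%, 8.33%, 2.04% and 9.89% of all genes. None fell at any of these times, beside 0.625%, 9.5%, 1.9% and 9.61% of all genes. At an unadjusted p under 0.05 (limma), 1 rose and 1 fell at 10 min and none fell at the later times. Without leaf 0 min replicate 1 or 2, or without leaf 180 min replicate 2 or 3, 1 rose at 180 min. Gohir.D05G362350, chosen after its values were seen, rose in leaf and had a mean of at most 0.393 FPKM in the stem groups. Its leaf mean was 0.254 ± 0.112 FPKM at 0 min, 6.36 ± 1.43 at 30 min and 8.24 ± 4.97 at 180 min (SD, n = 3). Its log2 change was 2.54 at 30 min (adjusted p = 0.000631) and 2.76 at 180 min (adjusted p = 0.000135, limma with Benjamini-Hochberg adjustment). It was listed at 0 in all 15 root libraries.

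Among the direct neighbours of the pair, the plus-strand gene Gohir.D02G183300 had root libraries of 1.82, 4.25 and 5.22 FPKM at 0 min and 239, 273 and 472 at 60 min. It rose by 6.12 ± 0.46 (log2, SE; adjusted p = 7.09e-07) in root at 60 min and by 4.35 ± 0.53 in stem (adjusted p = 0.00036). From 60 to 180 min in stem it fell by 3.02 (adjusted p = 0.00448). This gene lies on the strand opposite to the pair and had its highest root level at 180 min and its highest stem level at 60 min, as the pair did. Gohir.D02G183700, on the other side, went from 0.354 ± 0.168 to 144 ± 29.5 FPKM in root between 0 and 60 min (log2 change 6.73, adjusted p = 9.41e-08). In stem it went from 0.500 ± 0.441 to 30.0 ± 3.99 (4.41, adjusted p = 0.000104). Gohir.D02G183800 went from 0.125 ± 0.173 to 162 ± 35.0 in root at 60 min (7.16, adjusted p = 8.94e-08) and to 352 ± 132 at 180 min. In leaf these 3 genes stayed at a mean of at most 3.04 FPKM.

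All 5 genes of the A03 row rose in root and stem at 60 min, beside 19.5% and 13.3% of all genes. Gohir.A03G160400 had the highest 60 min root mean of the row, 177 ± 45.5 FPKM (log2 change 7.16, adjusted p = 2.2e-07), and Gohir.A03G160100, the plus-strand gene, the lowest, 46.2 ± 7.26 (4.34, adjusted p = 2.32e-06). Gohir.A03G160200, Gohir.A03G160300 and Gohir.A03G160500 stood at 72.9 ± 13.8, 137 ± 26.5 and 110.3 ± 17.1. In stem at 60 min the log2 changes of the row were 3.48 to 5.16. Each of the 5 fell in stem between 60 and 180 min, by 2.29 to 3.40, beside 6.16% of all genes that fell in this step.

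Other members of the family had other time courses in root. Gohir.A10G021700 and Gohir.D10G022500 did not move at 10 or 30 min by this test, with log2 changes between -0.28 and 0.55. They then reached 618 ± 222 and 267 ± 93.2 FPKM at 180 min (log2 changes 7.04 and 7.52, adjusted p = 9.88e-08 and 5.99e-09). Their step from 60 to 180 min was 2.88 (adjusted p = 0.000725) and 2.51 (adjusted p = 0.000229), where the pair had 0.56 and 0.04. Gohir.D05G169000 rose by 5.27 at 60 min and 5.50 at 180 min, and Gohir.A05G166000 by 4.25 and 3.29. The summed level of all 31 wound-induced protein genes in root went from 48.1 ± 8.57 FPKM at 0 min to 2999 ± 606 at 60 min and 4563 ± 1137 at 180 min. The pair made up 11.2% of it at 0 min and 36.7%, 41.2%, 40.0% and 32.4% at the later times. In stem its share was 17.4% at 0 min and 42.4% to 45.7% afterwards, and in leaf 8.42% to 17.1%. These shares are of FPKM, where a read in the 261-base models of the pair weighs more than a read in a longer one.

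The difference between tissues was tested on the other 22 genes kept in a fit of all libraries, a test added after the data were seen. A gene could be kept through its treated root or stem libraries alone, and only 11 of the family were tested in leaf. The filter thus favoured larger changes in root or stem than in leaf, and the counts only describe. The change at 60 min was larger in root than in leaf for 17 and smaller for 1, beside 9.67% and 7.77% of all genes. It was larger in stem than in leaf for 14 and smaller for 1, beside 3.99% and 1.48%. The change at 180 min was larger in root than in stem for 16 and smaller for none, beside 15% and 13.1%. Gohir.D05G362350 was the gene with the smaller change in both comparisons with leaf.

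Of 9 WI12 genes (PF07107), 6 were tested in root, and 5 changed at some time, beside 66.8% of all genes. At 60 min none rose and 2 fell, beside 19.5% and 19.1% of all genes, and 1 rose at an unadjusted p under 0.05 (limma). At 180 min 2 rose and 2 fell, beside 28.5% and 26.9% of all genes. Of the 6 tested in stem, 1 changed at some time, and of 8 tested in leaf, 5 did, beside 34.4% and 30% of all genes. Of 5 genes for wound-inducible basic proteins (PF08186), none of the 4 tested in root, 1 of 4 in leaf and none of 5 in stem changed. The shares of all genes that changed at some time were 66.8%, 30% and 34.4%. At an unadjusted F test p under 0.05 (limma) the PF08186 counts were also 0, 1 and 0. Over all 43 other wound-described genes, 25 of 30 tested changed in root, 19 of 30 in stem and 10 of 23 in leaf, beside 66.8%, 34.4% and 30% of all genes. The leaf count was 5 or 6 without leaf 0 min replicate 1, 30 min replicate 2, 60 min replicate 2 or 3, or 180 min replicate 2 or 3.

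By the correlation of the 15 group means of log2(FPKM + 1), the 5 genes most like Gohir.D02G183400 were Gohir.A03G160200 (r = 0.983), Gohir.A03G160300 (0.978), Gohir.D02G183300 (0.975), Gohir.D01G056800 (0.969) and Gohir.D04G107300 (0.963). The first 4 are wound-induced protein genes. Gohir.D04G107300 is described as DMR6-LIKE OXYGENASE 1, an enzyme that in Arabidopsis hydroxylates salicylic acid. It went from 6.01 to 77.5 FPKM in root and from 5.06 to 59.2 in stem between 0 and 60 min. The 5 most like Gohir.D02G183500 were Gohir.D02G183700 (0.983), Gohir.A03G160400 (0.981), Gohir.A03G160300 (0.978), Gohir.A05G363700 (0.976) and Gohir.A03G160500 (0.976). Gohir.A05G363700 is described as plant cysteine oxidase 2, which in Arabidopsis oxidises the terminal cysteine of certain transcription factors when oxygen is present. It went from 1.67 to 46.0 FPKM in root and from 1.19 to 13.9 in stem. The 2 members correlated with each other at 0.946, below their r with each of the genes just named. The groups share tissues and times, so these r values only describe.

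Of the 10 genes on each side of the pair on D02, 14 were tested in root, 3 of them wound-induced protein genes of the row. Of these 14, 10 changed at some time, which is near the 66.8% of all genes. At 180 min 9 of the 14 rose, the genes of the row included, and 2 fell, beside 28.5% and 26.9% of all genes. In stem 5 of 12 did, 3 of the 12 being genes of the row, and in leaf 2 of 12, or 4 without leaf 10 min replicate 1, beside 34.4% and 30% of all genes. Gohir.D02G184000, the next gene on the right and without a description, went from 2.61 to 16.3 FPKM at 60 min and to 154 at 180 min in root (log2 change 5.39, adjusted p = 4.2e-08). In stem it went from 0.161 to 3.90 at 60 min (log2 change 2.10, adjusted p = 0.00135) and 4.47 at 180 min (2.11, adjusted p = 0.000638), and in leaf it was too low to be tested. It was chosen after its values were seen, as were the next 2 genes. Gohir.D02G184300, with a Rieske domain, stood at 3.33 at 60 min and rose to 46.6 at 180 min in root (adjusted p = 3.21e-06 for that step), where the photosynthesis markers were also highest. Gohir.D02G184500, a Myb-like gene, fell from 24.0 to 0.221 in root (log2 change -4.21, adjusted p = 7.78e-06). Gohir.D02G184100, also Myb-like and also chosen after its values were seen, rose in root from 0.303 to 3.23 FPKM at 180 min. Its log2 change was 1.27 at 60 min (adjusted p = 0.00696) and 1.68 at 180 min (adjusted p = 0.000598, limma). Gohir.D02G182500, with a formiminotransferase domain, changed in all 3 tissues by the F test. It rose by 1.74 in root at 180 min (adjusted p = 0.00412) and fell by 0.99 in stem (adjusted p = 0.0142).

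The jasmonate list held 117 genes whose descriptions name lipoxygenase, allene oxide, oxophytodienoate, TIFY or jasmonate ZIM. It was drawn by these words alone, so genes outside jasmonate synthesis and signalling may be among them. In root 85 were tested, and 28 rose and none fell at 10 min, beside 8.16% and 7.03% of all genes (1 fell at an unadjusted p under 0.05, limma). At 180 min 11 rose and 48 fell, beside 28.5% and 26.9%. In stem at 10 min none of 94 passed the test, beside 0.0021% of all genes that rose and 0% that fell. So few calls over all genes leave no contrast with root to read from this count. At an unadjusted p under 0.05 (limma) 3 rose and 1 fell there. By the adjusted p 1 rose without stem 10 min replicate 3. In stem at 60 min 10 rose and 11 fell, beside 13.3% and 11.6%, and at 180 min 6 rose and 29 fell, beside 15% and 14.3%. The stem rises at 60 min numbered 16 without stem 0 min replicate 1. Without either other 0 min library, or any 60 min library, both stem counts at 60 min were 4 to 6. In leaf, 15 of 88 rose and 5 fell at 30 min, beside 8.33% and 9.5%, and 4 rose and 14 fell at 180 min, beside 9.89% and 9.61%. The leaf rises at 30 min numbered 4 to 8 without leaf 0 min replicate 1 or 2 or any 30 min library, and the falls 0 to 3 without leaf 0 min replicate 2 or 3 or any 30 min library. At 180 min in leaf, 1 or 2 rose without leaf 0 min replicate 2 or 180 min replicate 2 or 3, and 9 fell without 180 min replicate 1. The allene oxide cyclase genes Gohir.A08G036300 and Gohir.A08G036200 had root means of 104 and 94.8 FPKM at 0 min, 469 and 442 at 10 min, and 4.96 and 3.53 at 180 min. Their log2 changes were 2.23 each at 10 min (adjusted p = 0.000591 and 0.00151) and -4.13 and -4.58 at 180 min (adjusted p = 3.4e-07 and 4.29e-07). At 10 min these genes and the pair all stood above their 0 min level in root. At 60 min, with the pair already high, these genes were near that level, at 83.7 and 80.8 FPKM (adjusted p = 0.523 and 0.687, limma). At 180 min they were at their lowest and the pair was still high. Without stem 180 min replicate 1, 15 jasmonate genes fell in stem at 180 min, without replicate 2 of that group 16, and without stem 0 min replicate 1, 19.

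Of 41 proteinase inhibitor genes, 20 were tested in root, and 12 rose and 2 fell at 180 min, with a median of 1.59, beside 28.5% and 26.9% of all genes that rose and fell. In stem, 4 of 19 rose and 4 fell, beside 15% and 14.3%, or 2 fell without stem 0 min replicate 2 or 3 or without stem 180 min replicate 2. Gohir.A11G128400 and Gohir.D11G134200, of the potato inhibitor I family that blocks serine proteases, rose in all 3 tissues at 180 min. Gohir.A11G128400 went from 0.958 to 173 FPKM in root and, unlike the pair, from 2.45 to 118 in leaf (log2 changes 6.34 and 5.14, adjusted p = 8.41e-08 and 8.2e-06). Gohir.D11G134200 rose by 1.76 in root (adjusted p = 0.000327) and by 3.36 in leaf (adjusted p = 6.39e-07), and in stem it was listed at 0 before treatment and had 27.7 FPKM at 180 min (adjusted p = 3.81e-05). Of 257 chitinase, thaumatin and pathogenesis-related genes, 148 were tested in root, and 43 rose and 45 fell at 180 min, near the 28.5% and 26.9% of all genes. In stem 26 of 145 rose and 18 fell, near the 15% and 14.3% of all genes, and 10 fell without stem 180 min replicate 1, 11 without replicate 2 and 28 without replicate 3, while 11 fell without stem 0 min replicate 3. The thaumatin-like genes Gohir.A05G186000 and Gohir.A12G038100 moved in opposite directions in root at 60 min, by 1.78 and -2.19.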

How the data were processed

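Total RNA of 45 libraries (3 tissues, 5 times, 3 libraries each) was made into libraries with a NEBNext Ultra kit, per the labels' protocols. The submitters' processing notes name HISAT2 2.0.5, an aligner, and featureCounts 1.5.0-p3, a read counter. The genome build and any strand setting are not given in the sources used here. The authors deposited FPKM for 75376 genes. FPKM times gene length, divided by the value of 1 read in that library, gave whole reads in 100% of values within 0.01 read (largest deviation 1.7e-05). The denominators behind the deposited FPKM equalled median-of-ratios size factors over 42188 genes within 4e-12 and differed from library totals by up to 0.407 of their value. Of the value columns, 0 could not be mapped. The 2 root columns at 0 min that share 1 name carry no replicate number.

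Values were taken as log2(FPKM + 1), which understates changes of low genes. A gene entered a fit if 3 or more of its libraries had an FPKM of at least 1. In each tissue limma 3.58.1 (R 4.3.3, trend and robust settings) was fitted to 15 libraries with 1 factor of 5 times, with an F test over 4 contrasts and single contrasts for direction. A fit of all 45 libraries gave differences between tissues. P-values were adjusted by Benjamini-Hochberg over all genes of a fit and called under 0.05. The deposited unit is FPKM, so log values were tested, and the recovered reads were used to describe depth only. The fit was tested on simulated data.

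The members, gene lists, named genes and markers were chosen with earlier results of these data known. Named genes were the pair; the 12 other PF12609 genes with the smallest F test p; the nearest expressed gene on each side and flanking genes that changed in all 3 tissues; the 5 genes most like each member; and 2 genes of each pathway list by smallest p. Exceptions are marked as chosen after their values were seen. Replicate numbers shared by groups did not pair the libraries. Alternatives covered the filter (none or 5 FPKM), the pseudocount (0.1), scaling, array weights, a replicate block, and leaving out each library. The RefSeq gene table matched 0 identifiers and was not used.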

Additional observations from a re-analysis of the deposited data

Results flagged for a closer look

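The 3 other wound-induced protein genes of the D02 row changed by different amounts in different tissues, tested as the difference between the changes in 1 limma fit of the 45 libraries. In Gohir.D02G183300 the log2 change at 60 min was larger in root than in leaf by 6.14 (adjusted p = 1.39e-06) and larger in stem than in leaf by 4.37 (adjusted p = 0.00128). Its change at 180 min was larger in root than in stem by 5.15 (adjusted p = 9.37e-06). In Gohir.D02G183700 the same differences were 7.06 (adjusted p = 1.92e-11), 4.74 (adjusted p = 1.55e-06) and 5.54 (adjusted p = 7.99e-10). In Gohir.D02G183800 they were 7.33 (adjusted p = 1.48e-10), 5.35 (adjusted p = 1.78e-06) and 5.86 (adjusted p = 4.08e-09). In leaf Gohir.D02G183700 and Gohir.D02G183800 had means of at most 0.558 FPKM, which left little room to fall there. Both entered the fit through their treated root and stem libraries, where they are high. The filter thus favoured such differences between tissues, and the p-values of these genes only describe. No test of this kind was made for the pair itself. With 3 libraries a group, single libraries were not tested for standing apart.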

How the results depend on the processing

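Of 264 alternative values for the log2 changes of the pair, 255 moved by less than the spread between libraries. The 9 that moved were all in root and kept their direction. With a pseudocount of 0.1 the change of Gohir.D02G183400 at 60 min was 7.08, and those of Gohir.D02G183500 at 10, 30, 60 and 180 min were 4.86, 6.41, 8.80 and 8.84. At 180 min, division by library totals gave 6.78 and 7.61 and quantile scaling 6.71 and 7.51 for the 2 genes. Division by totals put the median of all genes in root at -0.44 at 180 min, -0.15 at 60 min and -0.19 at 30 min, and in leaf at -0.11 at 30 min. Leaving out single libraries gave log2 changes at 60 min of 6.66 to 6.97 and 7.88 to 8.38 in root, and 4.67 to 6.17 and 4.30 to 5.44 in stem. Of 42 alternatives for tissue differences at 0 min, 42 stayed within the spread. Of the 5 genes most like Gohir.D02G183400, 3 were shared by r over the 45 libraries and 2 by Spearman's rho, and 2 of those most like Gohir.D02G183500 by rho.

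Counts that moved by over 1.5 times were as follows, and the cause was not tested. A filter at 5 FPKM left 1, 6 and 3 flanking genes in leaf, root and stem, 26 defence genes that fell in root at 180 min, 1 other PF12609 gene that rose in leaf at 180 min and 0 from 60 to 180 min. A pseudocount of 0.1 gave 1 and 0 for the last 2, and 2 that fell in root from 60 to 180 min, and no filter gave 2 that rose in leaf in that step. Array weights gave 7 flanking, 14 inhibitor and 61 defence genes in leaf, 68 jasmonate and 85 defence genes in stem, and 28 defence genes that fell in stem at 180 min. They also gave 3 other PF12609 genes that rose in leaf at 60 min, 8 in root from 60 to 180 min and 5 in stem at 10 min, and 2 jasmonate genes that rose in stem at 10 min. Division by totals gave 8 inhibitor genes in leaf, and in root at 180 min 7 jasmonate genes that rose and 4 inhibitor genes that fell. Quantile scaling gave 1 jasmonate gene that fell in root at 10 min. Jasmonate genes that rose in leaf at 30 min numbered 8 with no filter and 29 with array weights, and those that fell there 8 with quantile scaling and 15 with array weights. Array weights also gave 25 that fell in leaf at 180 min, and 17 that rose and 18 that fell in stem at 60 min.

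Leaving out single libraries gave, in leaf, 5 to 10 wound-described, 2 to 4 flanking, 26 to 51 jasmonate and 2 to 8 inhibitor genes that changed, and 1 to 3 other PF12609 genes that rose at 180 min and 0 to 1 from 60 to 180 min. In root it gave 2 to 5 that rose in that step. In stem it gave 21 to 48 jasmonate genes that changed, 0 to 1, 5 to 10 and 5 to 11 other PF12609 genes that rose at 10, 30 and 180 min, and 0 to 1 jasmonate genes that rose at 10 min. Jasmonate genes that rose and fell numbered 4 to 20 and 0 to 7 in leaf at 30 min, 1 to 4 and 9 to 20 in leaf at 180 min, and 4 to 16 and 4 to 13 in stem at 60 min. The genes that fell in stem at 180 min were 15 to 34 for jasmonate, 2 to 4 for inhibitors and 10 to 28 for defence. The counts of tissue differences did not move by over 1.5 times under any of 49 alternatives each.

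Replicate numbers did not pair the libraries: deviations of same-numbered libraries correlated above 0.1 in 4 of 12 pairs in leaf (-0.51 to 0.54), 2 of 4 in root and 5 of 12 in stem. The block leaves root with a single 0 min library, assumed to vary like the other groups. With the replicate block, other wound-described genes that changed numbered 7, 22 and 19 in leaf, root and stem. The block gave 0 other PF12609 genes that rose in root at 10 min, 13 jasmonate genes that rose there at 10 min and 7 at 180 min, 9 that rose in leaf at 30 min and 6 that fell in stem at 60 min, and 18 defence genes that fell at 180 min. Of 4364 alternative values for the other named genes, 4243 kept their side of the threshold, 81 lost it, 40 gained it and 0 changed direction.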
